A study of Mus musculus with 59 samples.

Results

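Cell cycle and DNA replication genes were followed in mouse left ventricle after myocardial infarction. A list of 51 genes was taken, and every probe set annotated to exactly 1 of them was used. Of the 51 genes, 47 had such a probe set, 63 probe sets in all, among 8251 genes and 10833 probe sets with 1 gene on the array. Ccnb1, Tyms, Bub1b and Pole had no probe set of their own. The genes were divided into a replication side of 22 genes that act when DNA is copied, a mitosis side of 22 genes that act when chromosomes are separated, and 7 genes of G1 and S phase control and chromatin.

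The study measured total RNA on Affymetrix arrays, 1 array per piece of tissue and 59 arrays in all. Tissue was taken at 6 times after surgery, namely 1 h, 4 h, 24 h and 48 h in the early phase and 1 week and 8 weeks later on. From hearts with a myocardial infarction the infarcted area, between the left anterior descending (LAD) artery and the apex, and the remote myocardium above it were dissected. From hearts after a sham operation the upper left ventricle, which matches the remote area, served as the control of both areas, and some of these hearts also gave lower left ventricle, which matches the infarcted area. There were 3 arrays at each of the 6 times for infarct, remote and sham upper tissue, 18 per region, and 5 sham lower arrays, 1 at each time except 8 weeks. The labels give no strain, age or sex, and no transgene or drug treatment. The numbers in the array titles were taken as those of the mice. On that reading 17 of 19 infarcted mice gave both pieces, and at 48 h and at 1 week the 3 infarct and 3 remote arrays came from the same 3 mice. Until 48 h, sham and infarct title numbers did not interleave, so that infarction and sets of mice handled apart cannot be told apart at those times. Nothing else in the labels says that arrays of a group came from separate animals, so the p values measure the spread between these arrays.

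Before a cell copies its DNA, the Mcm2 to Mcm7 helicase is loaded on chromatin with the help of Cdc6 and switched on with Cdc45. Polymerases, the sliding clamp Pcna and the enzymes that supply nucleotides then do the copying. Entry into mitosis needs the kinase Cdk1 bound to cyclin A or B, and the separation of chromosomes needs Aurora and Polo kinases, kinesin motors and the spindle checkpoint. Transcription of many replication genes is driven by E2F proteins in G1 and S phase, and that of many mitosis genes later, in G2, through paired CHR and CCAAT elements in their promoters. Adult cardiomyocytes have largely left the cell cycle, whereas fibroblasts, endothelial cells and macrophages of the heart can divide. A transcript level does not by itself show that cells divided, since cells can also copy DNA without dividing.

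These promoter elements are shown for 3 mitosis and 3 replication genes whose values are given further on, to show how the letters known for each side look; how matches relate to the measured changes was not tested. The sequences are the RefSeq promoters of mouse build GRCm38.p6, from 250 bases before to 50 bases after the annotated transcription start, each written 5′ to 3′ on the strand of the gene. Capitals mark matches on either strand to the E2F type letters TTCCCGC or TTGGCGC, to the CHR letters TTTGAA, or to CCAAT. Cdk1 (chr10:69352863-69353162, minus strand), Racgap1 (chr15:99651607-99651906, minus strand) and Top2a (chr11:99024140-99024439, minus strand) are on the mitosis side. Cdc6 (chr11:98907901-98908200, plus strand), Mcm5 (chr8:75109259-75109558, plus strand) and Mcm3 (chr1:20820263-20820562, minus strand) are on the replication side.
Cdk1: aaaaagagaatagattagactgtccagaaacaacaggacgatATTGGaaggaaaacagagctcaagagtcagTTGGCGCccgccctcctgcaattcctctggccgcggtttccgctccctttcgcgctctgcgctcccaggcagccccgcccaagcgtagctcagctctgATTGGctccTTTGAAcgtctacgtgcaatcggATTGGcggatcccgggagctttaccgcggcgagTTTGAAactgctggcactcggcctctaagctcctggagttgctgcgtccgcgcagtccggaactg
Racgap1: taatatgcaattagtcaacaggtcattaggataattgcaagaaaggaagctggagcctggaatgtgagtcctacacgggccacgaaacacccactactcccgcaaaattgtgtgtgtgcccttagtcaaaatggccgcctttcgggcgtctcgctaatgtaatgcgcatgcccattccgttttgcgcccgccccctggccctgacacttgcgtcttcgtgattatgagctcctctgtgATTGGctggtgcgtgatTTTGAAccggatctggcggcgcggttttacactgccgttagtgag
Top2a: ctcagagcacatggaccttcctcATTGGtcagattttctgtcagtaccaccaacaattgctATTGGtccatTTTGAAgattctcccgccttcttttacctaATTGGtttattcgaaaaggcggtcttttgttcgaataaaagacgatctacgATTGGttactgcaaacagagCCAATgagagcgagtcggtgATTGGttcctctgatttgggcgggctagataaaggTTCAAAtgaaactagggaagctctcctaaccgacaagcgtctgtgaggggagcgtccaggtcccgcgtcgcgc
Cdc6: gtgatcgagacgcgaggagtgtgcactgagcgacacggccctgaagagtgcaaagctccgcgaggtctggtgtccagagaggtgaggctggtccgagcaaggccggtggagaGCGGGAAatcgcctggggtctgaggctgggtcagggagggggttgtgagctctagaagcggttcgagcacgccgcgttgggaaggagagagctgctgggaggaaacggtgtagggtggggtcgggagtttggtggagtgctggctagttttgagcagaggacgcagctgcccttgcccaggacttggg
Mcm5: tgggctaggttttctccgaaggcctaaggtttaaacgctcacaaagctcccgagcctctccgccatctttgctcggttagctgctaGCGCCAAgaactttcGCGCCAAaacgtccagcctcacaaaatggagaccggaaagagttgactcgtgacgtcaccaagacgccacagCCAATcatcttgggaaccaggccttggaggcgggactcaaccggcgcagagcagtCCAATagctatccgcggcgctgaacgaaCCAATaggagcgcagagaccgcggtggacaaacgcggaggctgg
Mcm3: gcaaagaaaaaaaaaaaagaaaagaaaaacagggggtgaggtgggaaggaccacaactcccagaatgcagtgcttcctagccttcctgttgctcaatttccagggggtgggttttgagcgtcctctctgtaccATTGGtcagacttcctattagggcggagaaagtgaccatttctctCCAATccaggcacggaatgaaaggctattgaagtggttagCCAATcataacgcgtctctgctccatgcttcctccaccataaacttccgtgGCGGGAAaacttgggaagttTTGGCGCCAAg
The window of Cdk1 held 2 CHR matches, 3 CCAAT matches and 1 match of E2F type. Racgap1 held 1 CHR and 1 CCAAT match, and Top2a held 2 CHR and 6 CCAAT matches. Cdc6 held 1 match of E2F type and neither of the others, Mcm5 held 2 of E2F type and 3 CCAAT matches, and Mcm3 held 3 and 3.

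The table held 50 promoters for 43 of the listed genes and 32851 promoters in all. CHR and CCAAT letters were both present in 13 of 18 mitosis promoters (72.2%), in 3 of 25 replication promoters (12%) and in 7.0% of all promoters. Letters of E2F type were present in 12 of 25 replication promoters (48.0%), in 3 of 18 mitosis promoters (16.7%), in 3 of 7 promoters of control and chromatin genes (42.9%) and in 6.8% of all. Counted with or without the other, CHR letters were found in 72.2% of mitosis promoters, 16% of replication promoters and 17.9% of all. In the same way CCAAT was found in 83.3%, 56.0% and 37.4%. None of these letters were found in the windows of 8 of the 43 genes, namely Birc5, Mad2l1 and Tacc3 of the mitosis side, Tk1, Dut and Tyms of the replication side, and Ccne1 and E2f1. An E2F match can overlap a CCAAT match, and 3 of 26 matches in these promoters did, against 149 of 2438 in all promoters. A match is a description of the letters in this window, not of binding.

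Array medians lay between 156.9 and 214.4 on a linear intensity scale that reached 35489.2. Changes are given as log2 differences ± SE after 45.6 was added to each intensity, which shrinks the changes of dim genes, with n = 3 arrays in each infarct, remote and sham upper group and 1 in each sham lower group. A gene is said to have risen, fallen or passed when its p value, adjusted over all 6670 genes tested, was below 0.05. Of the 47 genes with a probe set, 43 were tested, 18 on each side and 7 control and chromatin genes. Mcm6, Prim1, Bub1 and Tacc3 stayed below the filter on dim genes. A further 12 genes were tested only because arrays other than sham upper arrays reached the filter, and a gene that entered that way had to differ somewhere. They were Cdc6, Prim2, Chek1, Hmgb2, Cdk1, Aurka, Aurkb, Birc5, Kif11, Kif20a, Racgap1 and Top2a. Counts over the 43 genes are therefore followed, where they matter, by counts over the 31 genes that passed the filter on sham upper arrays alone, 16 on the replication side, 10 on the mitosis side and 5 control and chromatin genes. Where 3 intensities follow each other, they belong to the arrays with the lowest, middle and highest title number of the group.

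Few of the genes differed from sham in the infarct in the first day, 25 of 43 rose at 48 h and 37 at 1 week, and few differed at 8 weeks. The counts that rose and fell among the 43 genes were 0 and 1 at 1 h, 0 and 0 at 4 h, 6 and 1 at 24 h, 25 and 2 at 48 h, 37 and 1 at 1 week, and 1 and 3 at 8 weeks. The median change over the 43 genes was 0.14 at 24 h, 0.70 at 48 h, 1.43 at 1 week and 0.19 at 8 weeks, beside medians of -0.02, -0.04, 0.11 and -0.01 over all genes tested. The share of all genes called in the same comparisons was 6.78% at 1 h, 11.9% at 4 h, 42.6% at 24 h, 50.9% at 48 h (25.1% higher), 60.5% at 1 week (34.9% higher) and 21.1% at 8 weeks. At 1 h, 4 h, 24 h and 8 weeks the share of these genes called was below that of all genes. Over the 31 genes that passed the filter on sham arrays alone, 15 rose and 2 fell at 48 h, with a median of 0.54. That was 54.8% called, beside 50.9% of all genes. At 1 week 25 of the 31 rose and 1 fell, with a median of 1.09 and 83.9% called. At 1 week the median of all genes depends on the scaling, since it was 0.11 as deposited and -0.07 after quantile normalization, with 57.6% and 47.3% of the called genes higher. By quantile normalization 35 of the 43 genes rose and 1 fell at 1 week.

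**Figure D1:**
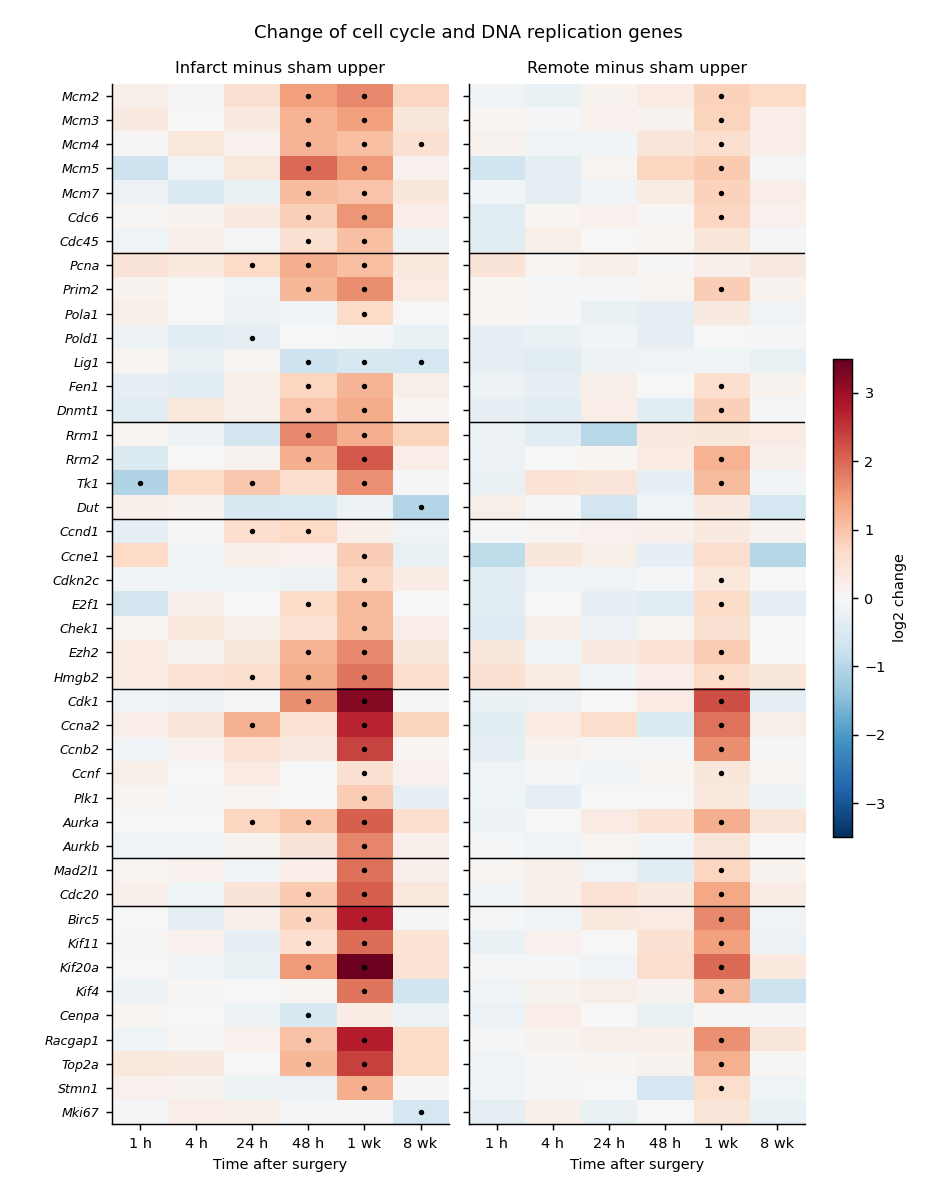
Log2 change from sham upper tissue of the 43 tested genes (rows, grouped by role from licensing at the top to spindle and chromosome genes at the bottom) at 6 times (columns), for infarct on the left and remote tissue on the right. Dots mark changes with an adjusted p below 0.05; the infarct has 27 dots at 48 h and 38 at 1 week, and remote tissue has 29, all at 1 week.

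In the first day few of the genes differed from sham. At 1 h the only change called was a fall of Tk1, the thymidine kinase of the salvage pathway, by 1.05 ± 0.32 (adjusted p = 0.0405), a call that was lost without the lowest or middle sham array or the middle or highest infarct array. At 4 h limma called 0 of the 43 genes, of which 4 reached 0.05 without adjustment. At 24 h Ccna2, cyclin A, which acts in S phase and at the entry into mitosis, read 52.4, 158 and 80.3 in sham upper tissue and 141, 356 and 423 in the infarct. Its infarct arrays overlapped with sham, and the rise was 1.25 ± 0.36 (adjusted p = 0.00438). Sham upper Ccna2 itself was low at 24 h, with a mean of 96.8 beside 230.8 at 4 h and 317.5 at 48 h. The sliding clamp Pcna read 919.6, 792 and 914 in sham and 1534, 1531 and 1200.3 in the infarct, without overlap, and rose by 0.68 ± 0.17 (adjusted p = 0.000877). The other genes that rose at 24 h were Tk1 (0.93), the mitotic kinase Aurka (0.74), the G1 cyclin Ccnd1 (0.58) and the chromatin protein Hmgb2 (0.55). Pold1, the catalytic subunit of DNA polymerase delta, fell by 0.34 ± 0.14 (adjusted p = 0.047). When 1 array was left out, the number of genes called at 24 h ran from 4 (without the middle or the highest sham array) to 9 (without the lowest sham array).

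At 48 h replication licensing genes rose together in the infarct. All 7 tested passed, with a median change of 1.20. Mcm5, a subunit of the replicative helicase, read 169, 83.4 and 203 in sham upper tissue, 284, 360.8 and 208 in remote tissue and 856, 961 and 416 in the infarct. The infarct arrays lay above all others, and the rise over sham was 1.97 ± 0.32 (adjusted p = 1.6e-06), 3.93-fold on this scale. Mcm2 read 36.1, 134 and 80.0 in sham and 339.6, 346 and 201 in the infarct and rose by 1.45 ± 0.31. The helicase genes Mcm3, Mcm4 and Mcm7 rose by 1.22, 1.20 and 1.09, the helicase loader Cdc6 by 0.83 and the helicase activator Cdc45 by 0.54. Among these 7 genes only Cdc45 had an infarct array within the range of sham.

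Of the 7 DNA synthesis enzymes tested, 4 rose and 1 fell at 48 h, with a median change of 0.75. Pcna, which holds polymerases on DNA, read 809, 1126 and 1079 in sham, 1076, 1227 and 835 in remote tissue and 2701, 2878 and 1922 in the infarct. All 3 infarct arrays lay above the 6 others, and the rise over sham was 1.27 ± 0.17 (adjusted p = 2.57e-08). Prim2, a subunit of the primase that starts each new strand, read 11.5, 13.3 and 19.7 in sham and 115, 103 and 59.1 in the infarct. Fen1, the nuclease that trims Okazaki fragments, rose by 0.75, and Dnmt1, which copies DNA methylation to the new strand, by 0.99. Neither Pola1 (-0.11) nor Pold1 (-0.01), the catalytic subunits of 2 replicative polymerases, passed. Lig1, the ligase that joins the fragments, fell on the probe set used here, by 0.73 ± 0.18 (adjusted p = 0.000651), while its other probe set went the opposite way, as given further on. Among the nucleotide supply genes, both tested subunits of ribonucleotide reductase rose, Rrm1 by 1.68 ± 0.40 and Rrm2 by 1.26 ± 0.20. Tk1 (0.58) and Dut (-0.52), which breaks down dUTP, did not pass.

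On the mitosis side 8 of 18 genes rose and 1 fell at 48 h, with a median change of 0.46, against 13 and 1 of 18 with a median of 1.04 on the replication side. Over the genes that passed the filter on sham arrays alone, 1 of 10 mitosis genes rose (Cdc20, median 0.05) and 11 of 16 replication genes did (median 1.04). With no filter, 10 of 20 mitosis genes and 14 of 20 replication genes rose. The difference between the sides was not tested. Cdk1 read 24.5, 22.1 and 119.8 in sham, 28.9, 181 and 40.6 in remote tissue and 229, 616 and 81.8 in the infarct, and its rise was 1.63 ± 0.38 (adjusted p = 0.000404). The infarct array with the highest number lay within the range of sham. Ccnb2, cyclin B2, ranged from 320.1 to 505.5 in sham and read 381, 1176 and 259.5 in the infarct, where 1 array was high and another was below all sham arrays. Its change of 0.33 ± 0.26 did not pass (adjusted p = 0.298). The kinesin Kif20a, needed for cytokinesis, read 13.0, 12.1 and 17.3 in sham and 106, 417 and 20.5 in the infarct. Birc5 (survivin), a chromosomal passenger protein, read 76.2, 68.3 and 60.4 in sham and 126, 434 and 52.1 in the infarct. Top2a, the topoisomerase that untangles chromosomes, read 13.1, 7.8 and 14.4 in sham and 89.5, 214 and 15.1 in the infarct. In each of these genes the middle infarct array was by far the highest and the array with the highest number lay within or near the sham range. Cenpa, the centromeric histone, fell by 0.56 ± 0.14 (adjusted p = 0.00118).

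The 3 infarct arrays at 48 h spanned a wider range on the mitosis side than on the replication side. The mean log2 difference from sham over the 18 mitosis genes was 0.35, 1.29 and -0.08, and over the 18 replication genes 0.92, 1.03 and 0.48. These means include genes tested only through other arrays, more of them on the mitosis side. No such mean was taken over the genes that passed the filter on sham arrays alone. Remote tissue of the same 3 mice gave -0.27, 0.35 and 0.10 for mitosis and 0.13, 0.20 and -0.13 for replication, so that the middle mouse was highest in both pieces. Without the middle infarct array, 4 mitosis genes rose and 2 fell with a median of 0.10, and 12 replication genes rose and 1 fell with a median of 0.92. Without it the change of Ccnb2 was -0.23. Without the array of the highest number, 9 mitosis genes rose, with a median of 0.81. Over all 43 genes, 22 to 29 were called when 1 array of either group was left out. Summed marker levels of other cell types on these 3 arrays were 22933, 22293 and 12922 for 13 macrophage genes, 28023, 43450 and 25279 for 15 fibroblast genes, and 15846, 15282 and 15612 for 12 neutrophil genes. Their part in the differences between arrays was not tested.

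**Figure D2:**
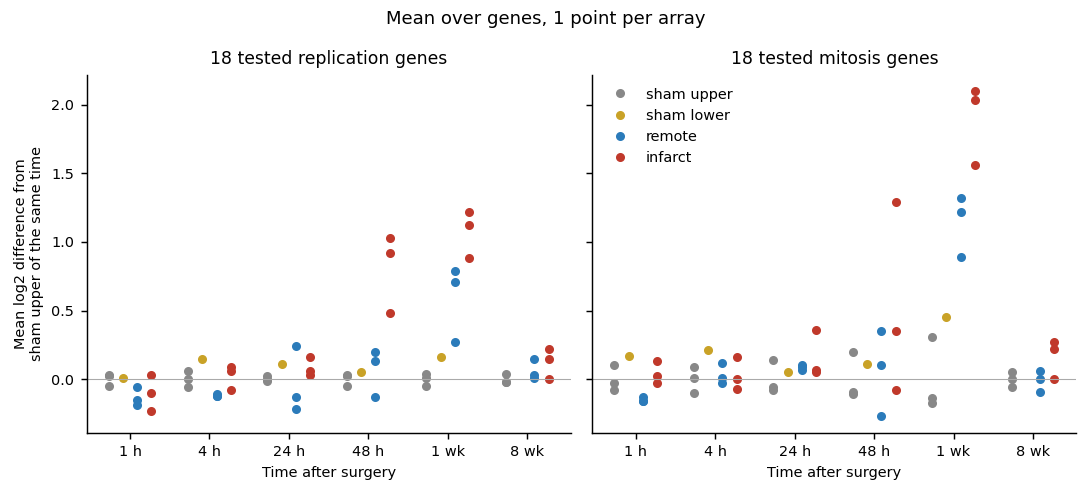
Mean log2 difference from the sham upper mean of the same time, over the 18 tested replication genes (left) and the 18 tested mitosis genes (right), against time after surgery, 1 point per array, coloured by region. At 48 h the infarct points lie between 0.48 and 1.03 on the left and between -0.08 and 1.29 on the right, and at 1 week between 0.88 and 1.22 on the left and between 1.56 and 2.10 on the right.

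Among the 7 control and chromatin genes, 4 rose at 48 h. Ezh2, the methyltransferase of Polycomb, read 57.2, 102 and 133 in sham and 319, 302 and 213 in the infarct and rose by 1.20 ± 0.16. Hmgb2 rose by 1.30 ± 0.21, and E2f1, a transcription factor of replication genes, by 0.65 ± 0.23. Ccnd1, which starts passage through G1, read 722, 646 and 707 in sham and 1249, 1297 and 947 in the infarct, without overlap. It was the only gene of the 43 that was higher at 48 h and not at 1 week. The S phase cyclin gene Ccne1 (0.16), the checkpoint kinase gene Chek1 (0.49) and the kinase inhibitor gene Cdkn2c (-0.19) did not pass.

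Whether the infarct effect changed from 24 h to 48 h was tested as the difference between the 2 differences from sham. In the infarct 10 of the 43 genes rose and 1 fell relative to sham in this interval, while 10.4% of all genes were called and 5.95% went up. The 7 replication genes were Mcm3, Mcm4, Mcm5, Mcm7, Prim2, Rrm1 and Rrm2, with Mcm5 gaining 1.60 ± 0.45. On the mitosis side Cdk1 (1.70) and Kif20a (1.74) passed, and Ezh2 (0.81) was the remaining rise. Lig1 fell by 0.83 ± 0.25 (adjusted p = 0.0295). The median was 0.70 on the replication side and 0.28 on the mitosis side. Among genes that passed the filter on sham arrays alone, 6 of 16 replication genes rose and 1 fell, and the 10 mitosis genes had a median of -0.14. This count depended on single arrays: it was 4 without the middle and 7 without the lowest infarct array at 48 h, 5 without the highest infarct array at 24 h, 6 without the lowest sham array at 24 h, and 18 without the highest infarct array at 48 h.

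At 1 week the mitosis genes had the largest changes. All 7 mitotic cyclins and kinases rose, with a median of 2.10, as did both spindle checkpoint genes and 7 of 9 spindle, chromosome and cytokinesis genes (median 1.95). In all 16 of 18 mitosis genes rose, with a median of 2.01, and 15 of 18 replication genes rose and 1 fell, with a median of 1.23. Of the genes that passed the filter on sham arrays alone, 8 of 10 mitosis genes (median 1.57) and 13 of 16 replication genes (median 1.12) rose. In 37 of the 43 genes every infarct array was above every sham array, or in 25 of the 31 genes that passed the filter on sham arrays alone. The share of all genes without such overlap was not counted, so these 2 counts cannot be set against all genes. By limma's call 34.9% of all genes were higher in the infarct at this time.

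Cdk1 read 21.2, 23 and 88.3 in sham, 275, 369.5 and 463 in remote tissue and 521, 932 and 824 in the infarct at 1 week. The 3 regions did not overlap, and infarct was above sham by 3.21 ± 0.38 (adjusted p = 1.36e-09). Ccnb2 read 236, 251 and 385 in sham, 848, 963 and 1134 in remote tissue and 1332, 2033 and 1714 in the infarct, again in 3 separate ranges, with a rise of 2.38 ± 0.26 (adjusted p = 1.74e-10). Ccna2 read 118, 65.2 and 181 in sham and 759, 1102 and 1089 in the infarct, and rose by 2.66 ± 0.36. Aurka, which builds the spindle poles, read 8.2, 7.4 and 26.6 in sham and 169.9, 243 and 217 in the infarct and rose by 2.10 ± 0.24. Its relative Aurkb, of the chromosomal passenger complex, rose by 1.72 ± 0.38. The Polo kinase gene Plk1 rose by 0.90 and the cyclin gene Ccnf by 0.52, the smallest rise of these 7.

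The spindle checkpoint holds cells until all chromosomes are attached. Cdc20, the activator that the checkpoint restrains, read 97.5, 208 and 253 in sham, 456, 438 and 700.4 in remote tissue and 613, 1389.8 and 827 in the infarct. Mad2l1, which binds Cdc20, read 154, 123 and 154 in sham, 256, 214 and 377 in remote tissue and 475, 793 and 793 in the infarct. Both genes were above sham on every infarct array, by 2.08 ± 0.38 and 1.92 ± 0.20. Kif20a read 17.9, 11.5 and 62.9 in sham, 206, 257 and 277 in remote tissue and 559.9, 835 and 856 in the infarct, and its rise of 3.42 ± 0.35 (adjusted p = 4.07e-11), 10.69-fold, was the largest of the 43 genes on the probe sets used. Like Cdk1, Kif20a was tested only through arrays other than sham upper ones. Among the 31 genes that passed the filter on sham arrays alone the largest rise was 2.66. On the other probe set of Kif20a the rise was 1.41. Racgap1, of the complex that sets the cleavage furrow, read 18.2, 23.5 and 23.4 in sham, 142, 136 and 201 in remote tissue and 310.2, 455 and 462 in the infarct. For Racgap1 the rise of 2.74 ± 0.26 (adjusted p = 3.01e-12) stood on 3 sham arrays that were close together and dim. Birc5 read 20, 42.5 and 56.0 in sham, 157, 261 and 272 in remote tissue and 398, 564 and 608 in the infarct, and Top2a 7.5, 5.0 and 54.4 in sham, 40.3, 150.2 and 169.8 in remote tissue and 185, 378 and 342 in the infarct. Stmn1, a protein that destabilises microtubules, was bright already in sham (519.5, 619 and 646) and reached 1054, 1777 and 1820.1 in the infarct. The kinesin genes Kif11 and Kif4 rose by 1.95 and 1.86, while Cenpa (0.26) did not pass.

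**Figure D3:**
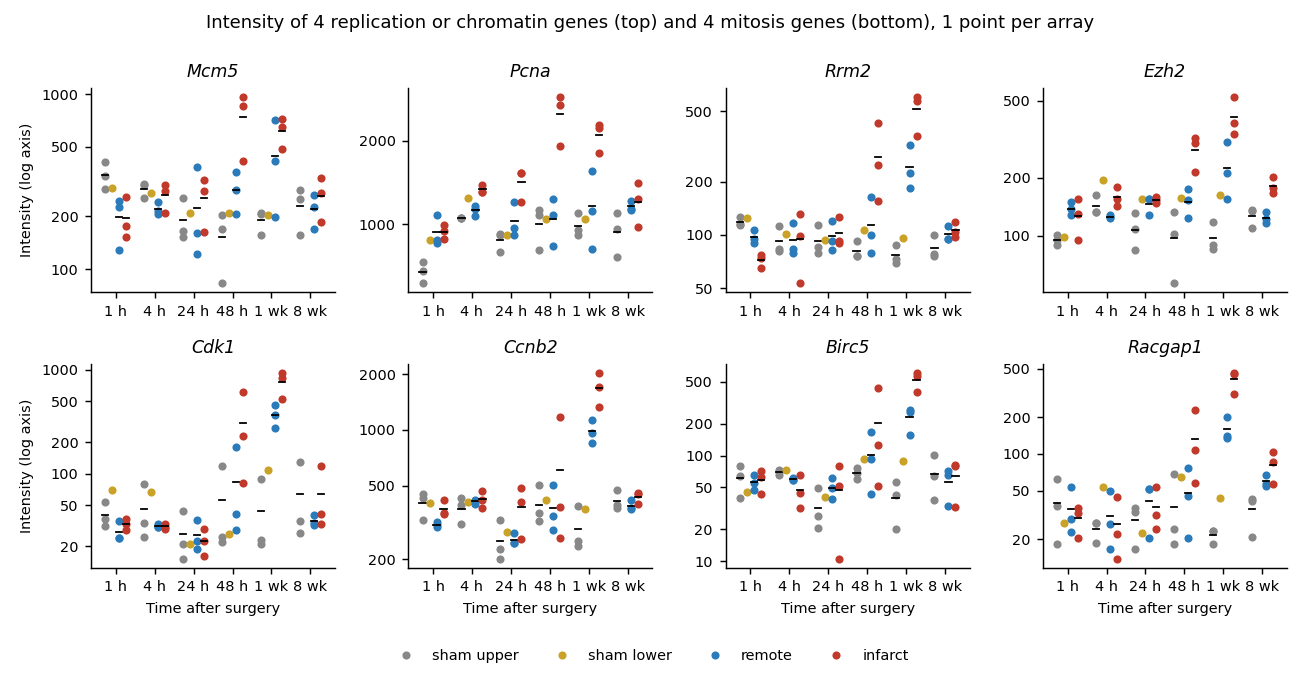
Intensity (log axis) of Mcm5, Pcna, Rrm2 and Ezh2 in the top row and of Cdk1, Ccnb2, Birc5 and Racgap1 in the bottom row against time after surgery, 1 point per array, coloured by region; black lines are means of the arrays of a group. The genes in the top row are already high on infarct arrays at 48 h, where those in the bottom row are spread out, and at 1 week the infarct points of Cdk1, Ccnb2, Birc5 and Racgap1 lie above the remote points, which lie above sham.

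On the replication side all 7 licensing genes rose again at 1 week, with a median of 1.43 and a range from 1.01 (Mcm7) to 1.69 (Mcm2). Mcm5 read 156, 210.3 and 205 in sham, 199.5, 708 and 416 in remote tissue and 483, 722 and 650.4 in the infarct, a rise of 1.48 ± 0.32 beside 1.97 at 48 h. Cdc6 read 51.6, 63.8 and 52.5 in sham, 116, 106 and 144 in remote tissue and 186, 322 and 253 in the infarct. Rrm2, the regulatory subunit of ribonucleotide reductase, had the largest rise of the side, from 69.5, 72.9 and 88.1 in sham to 363.4, 599 and 569 in the infarct, with a change of 2.16 ± 0.20 (adjusted p = 5.27e-12). Tk1 went from 124, 179.8 and 126 in sham to 384, 561 and 636 in the infarct (1.59 ± 0.32). Of the synthesis enzymes, Prim2, Dnmt1, Fen1, Pcna and Pola1 rose, by 1.64, 1.30, 1.19, 1.06 and 0.67. Pold1 (-0.04) and Dut (-0.19) did not pass. In the control and chromatin group, Hmgb2 (1.89), Ezh2 (1.67), Chek1 (1.10), E2f1 (1.09), Ccne1 (0.85) and Cdkn2c (0.71) rose. Ccnd1 read 393.7, 769 and 864 in sham and 787, 877 and 581 in the infarct, with overlap and no call.

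The 4 genes below the filter had these values at 1 week. Bub1, a checkpoint kinase, read 2.1, 14.9 and 2.1 in sham and 98.0, 214 and 175 in the infarct. Tacc3, a spindle protein, read 5.6, 2.7 and 12 in sham and 88.6, 134 and 93.3 in the infarct, and Prim1, the catalytic subunit of primase, 29.1, 9.0 and 8.9 in sham and 65.1, 103 and 103 in the infarct. For these 3 genes every infarct array was above every sham array. Mcm6 stayed near the bottom of the scale in sham (25.9, 18.4 and 16) and in the infarct (3.2, 6.2 and 17.1), and no change can be read from it. When no filter was applied, 40 of 47 genes rose and 1 fell at 1 week.

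In the step from 48 h to 1 week most genes that rose were on the mitosis side, and the difference between the sides was not tested. Relative to sham, 15 of 18 mitosis genes rose further in the infarct and all 18 had a positive change, with a median of 1.42, whereas 2 of 18 replication genes did (Pola1 and Rrm2), with a median of 0.28. All genes gave 26.3% called, 14.8% upward. Ccna2 gained 2.20 ± 0.51 (adjusted p = 0.00121), Ccnb2 2.05 ± 0.37 (adjusted p = 6.22e-05) and Mad2l1 1.69 ± 0.29 (adjusted p = 3.7e-05). The remaining call was Cdkn2c (0.90). Mcm5 (-0.49), Rrm1 (-0.40) and Pcna (-0.21) had negative changes, as did 3 further replication genes, and none of these passed. Over the genes that passed the filter on sham arrays alone, 8 of 10 mitosis genes (median 1.33) and 2 of 16 replication genes (median 0.23) rose. After quantile normalization 12 of 18 mitosis genes and 1 of 18 replication genes did, with medians of 1.25 and 0.06. Leaving out 1 array gave between 11 and 17 mitosis genes and between 1 and 4 replication genes. The step includes a change in sham, where Ccna2 went from a mean of 317.5 to 121.5 and Kif4 from 72.0 to 27.2. In the infarct alone Ccna2 still went from 390.2, 719 and 315 to 759, 1102 and 1089, and Kif4 from 74.2, 116 and 54.9 to 149.6, 258 and 252, without overlap in either gene.

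**Figure D4:**
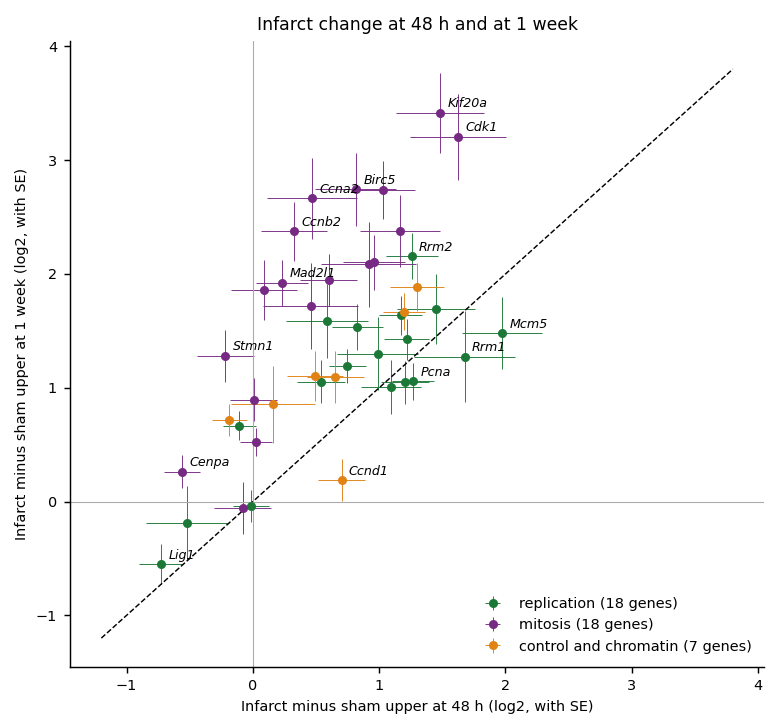
Log2 change of infarct from sham upper tissue at 48 h (horizontal axis) and at 1 week (vertical axis) for the 43 tested genes, with SE bars, coloured by side; the dashed line marks equal change. All 18 mitosis genes lie above the line, and 12 of 18 replication genes do, with Mcm5, Rrm1 and Pcna below it.

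Viewed by gene, 24 of the 43 genes were higher than sham at both 48 h and 1 week, 13 at 1 week and not at 48 h, and 1 at 48 h alone. On the replication side these counts were 13, 2 and 0, and on the mitosis side 8, 8 and 0. The highest mean intensity in the infarct over the 6 times fell at 1 week for 15 of 18 mitosis genes and for 10 of 18 replication genes, and at 48 h for 0 and 5 of them. A gene called at 1 time and not at another is not thereby shown to differ between them, and the steps above give that test.

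Remote myocardium differed from sham at 1 week, and at the other times limma called 0 of the 43 genes in remote against sham upper tissue at 1 h, 4 h, 24 h, 48 h and 8 weeks. Before adjustment 8, 1, 2, 7 and 3 genes lay below 0.05 at these times. The shares of all genes called at those times were 8.02%, 1.74%, 4.50%, 8.82% and 0.12%. At 1 week 29 of 43 genes rose and 0 fell, with a median of 0.72, beside 38.4% of all genes called and 20.7% higher. The mitosis side had 14 of 18 genes higher (median 1.27) and the replication side 11 of 18 (median 0.66), or 7 of 10 and 9 of 16 among genes that passed the filter on sham arrays alone. The largest rises were those of Cdk1 (2.26 ± 0.38 (adjusted p = 9.06e-06)), Kif20a (1.99), Ccna2 (1.90), Birc5 (1.69), Ccnb2 (1.63) and Racgap1 (1.59). Among these, Ccna2 and Ccnb2 passed the filter on sham arrays alone, and the others were tested only through other arrays. Kif11, which pushes spindle poles apart, went from 7.6, 5.4 and 10.7 in sham to 61.5, 141 and 108 in remote tissue. Rrm2 (1.21) and Tk1 (1.10) led the replication side.

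Pcna did not pass in remote tissue (0.18 ± 0.17), where its arrays read 812, 1115 and 1562 against 1095, 913 and 955 in sham. Rrm1 (0.39), Cdc45 (0.41), Aurkb (0.41) and Plk1 (0.34) did not pass either. By quantile normalization 19 genes rose in remote tissue, 12 on the mitosis side and 6 on the replication side. Leaving out 1 array gave between 21 and 30 genes, and the lowest count came without the sham array of the lowest number. The single sham lower array at 1 week was above every sham upper array in some of these genes, with 463 for Ccna2 and 261 for Mad2l1, and its mean over the mitosis genes was 0.45 above sham upper.

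In the remote steps from 1 h to 4 h, 4 h to 24 h and 24 h to 48 h limma called 0 of the 43 genes (5, 1 and 2 before adjustment). All genes gave 0.075%, 0.255% and 0.015% called. After 48 h the remote effect changed in the same direction as the infarct effect. From 48 h to 1 week 13 of 43 genes rose relative to sham and 0 fell, 7 on the mitosis side (median 1.08), 5 on the replication side (median 0.54) and E2f1, with 13.6% of all genes called. When 1 array was left out the count ran from 6 to 16, and without the highest remote array at 1 week 5 mitosis genes and 0 replication genes passed. From 1 week to 8 weeks 13 genes fell, 8 on the mitosis side, Prim2 and Rrm2 on the replication side, and Ccne1, E2f1 and Ezh2, with 16.5% of all genes called. Of the 31 genes that passed the filter on sham arrays alone, 7 fell (22.6%), 3 of 10 on the mitosis side and 1 of 16 on the replication side. Cdk1 fell by 2.58 ± 0.54 (adjusted p = 0.00119).

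Infarct and remote tissue were compared directly, for most mice within the same heart. Of the 43 genes, 1 was higher and 0 lower in the infarct at 1 h, 0 and 0 at 4 h (2 before adjustment, by limma), 3 and 0 at 24 h, 24 and 1 at 48 h, 26 and 0 at 1 week, and 1 and 0 at 8 weeks. All genes gave 5.08%, 1.42%, 33.3%, 48.1%, 41.2% and 6.49% called at these times. The gene called at 1 h was Ccne1 (1.59 ± 0.31 (adjusted p = 0.00291)), in a comparison where the share of called genes that were higher in the infarct was 62.2%, or 50.8% by quantile normalization. At 24 h Hmgb2 (0.65), Pcna (0.47) and Ccnf (0.38) were higher in the infarct. With each array left out in turn this count ran from 1 (without the middle infarct or the middle remote array) to 5 (without the lowest infarct array).

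At 48 h the replication side was higher in the infarct than in remote tissue in 14 of 18 genes and lower in 1 (Lig1), with a median of 0.86. The mitosis side was higher in 6 of 18 (median 0.50). Among genes that passed the filter on sham arrays alone, 12 of 16 replication genes (median 0.86) and 2 of 10 mitosis genes (median 0.20) were higher, beside 24.4% of all genes. Pcna differed by 1.22 ± 0.15 (adjusted p = 2.22e-08) and Prim2 by 1.09 ± 0.16 (adjusted p = 3.13e-07), with infarct arrays above every remote array in both. Without the middle infarct array 15 genes were higher and 2 lower. At 1 week 12 of 18 mitosis genes (median 0.76) and 10 of 18 replication genes (median 0.59) were higher in the infarct. Among genes that passed the filter on sham arrays alone, 5 of 10 and 8 of 16 were, and 48.4% of those 31 genes were called beside 41.2% of all genes. Kif20a differed by 1.43 ± 0.32 (adjusted p = 0.000425), Aurkb by 1.30 ± 0.35, Hmgb2 by 1.25 ± 0.20 and Pcna by 0.87 ± 0.15. The changes of Tk1 (0.48), Dnmt1 (0.46) and Mcm7 (0.21) from remote tissue did not pass. Without the middle infarct array 17 genes were called at 1 week. Comparisons of infarct and of remote tissue with sham share the sham arrays. Side by side, the change from sham was larger in the infarct than in remote tissue for 38 of 43 genes.

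By 8 weeks the rise had receded. From 1 week to 8 weeks the difference between infarct and sham fell in 30 of 43 genes, and all 43 changes were negative, with a median of -1.24 beside -0.14 over all genes, of which 36.8% were called and 20.2% went down. The median over all genes was 0.01 by quantile normalization. On the mitosis side 15 of 18 genes fell, on the replication side 11 of 18, and 4 control and chromatin genes. Of the 31 genes that passed the filter on sham arrays alone, 18 fell (58.1%), with a median of -1.03. They were 7 of 10 mitosis genes, 9 of 16 replication genes and 2 of 5 control and chromatin genes. Cdk1 fell by 3.16 ± 0.54 (adjusted p = 1.18e-05), and its infarct arrays at 8 weeks read 32.6, 119 and 41.4, against 27, 129 and 35.3 in sham. The infarct array means over the mitosis genes were 0.00, 0.22 and 0.27 above sham. Against sham at 8 weeks 31 of 43 changes were positive, or 20 of 31 among genes that passed the filter on sham arrays alone. By limma 15 of the 43 genes lay below 0.05 before adjustment, 11 higher and 4 lower, beside 2296 of all 6670 genes. After adjustment Mcm4 was higher (0.54 ± 0.19), and Dut (-1.02), Lig1 (-0.62) and Mki67 (-0.61) were lower. The falls of Lig1 and Mki67 again belong to the probe sets used here. The other probe set of Mki67 read 27.1, 13.0 and 35.3 in sham and 70.6, 97.2 and 107 in the infarct, higher without overlap, and that of Lig1 read 28.5, 34.4 and 46.9 in sham and 38.1, 130.4 and 236 in the infarct, with overlap. The count of 4 ran from 1 to 5 when 1 array was left out, and was 1 without the middle or highest array of either group. Kif11 was the gene higher in infarct than in remote tissue (0.67 ± 0.21 (adjusted p = 0.0454)), and that call was lost without any 1 of the arrays except the infarct array of the lowest number.

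Early steps of the infarct effect gave 0 calls from 1 h to 4 h by limma (2 before adjustment) with 1.17% of all genes called, and 1 call from 4 h to 24 h, a rise of the nuclease gene Fen1 (0.58 ± 0.21 (adjusted p = 0.0491)), with 17.1% of all genes called. The Fen1 call was lost under 10 of the 12 arrays left out.

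Of 9 genes with several probe sets tested, 4 had probe sets that differed in their call at 1 week. Mki67, whose protein coats mitotic chromosomes and is the common stain for cycling cells, was represented by its brighter probe set, which read 107, 103 and 129 in sham and 102, 124 and 94.6 in the infarct. The other probe set of Mki67 read 6.7, 15.9 and 39.5 in sham, 115, 170.3 and 389.2 in remote tissue and 459, 700.0 and 934 in the infarct at 1 week. On that probe set the rise was 3.47 ± 0.36 (adjusted p = 3.84e-11), and at 48 h its infarct arrays read 120.3, 368 and 33.2, with the middle array highest as in the other mitosis genes. Lig1 likewise fell on its brighter probe set, by 0.55 at 1 week, and rose by 1.76 ± 0.36 (adjusted p = 5e-05) on the other, from 35.7, 29.7 and 36.2 to 189.5, 271 and 214. At 48 h that Lig1 probe set read 99.8, 32.1 and 125 in sham and 289.9, 326.2 and 139 in the infarct. Mcm5 and Tk1 rose at 1 week on the probe sets used here and not on their other ones (0.10 and -0.37). At 48 h the other probe set of Mcm5 had a change of -0.52, opposite in sign to the rise of 1.97 and not called (adjusted p = 0.226, limma over every probe set). At the same time the other probe set of Kif20a had a change of 0.29 (adjusted p = 0.347, limma) beside 1.48 on the one used. For Mki67 and Lig1 the brighter probe sets carry name suffixes that mark probe sets not meeting all design rules of the array maker. With standard probe sets ranked before such ones, an alternative chosen after seeing the data, both genes rose at 1 week. Kif20a, Plk1 (1.46 and 1.21) and Mcm3 (1.71) rose at 1 week on every probe set tested. Tyms had no probe set of its own, and Ccnb1, Bub1b and Pole give no value here.

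Sham tissue was not constant over time. In sham upper arrays 10 of the 43 genes differed between the 6 times by limma's moderated F test, a share near the 20.4% of all genes. With 1 sham upper array left out the count was 3 to 9. Kif4 varied most (F = 7.05, adjusted p = 0.00235), from a mean of 27.2 at 1 week to 158.6 at 8 weeks. Tk1, Ccna2, Fen1, Lig1, E2f1, Cdc45, Ccnd1, Pcna and Ccnf were the others. In all 10 the sham mean was lower at 1 week than at 48 h, and this difference is part of the step given above. Sham lower tissue was compared with sham upper tissue of the same 5 mice, and limma called 0 of the 43 genes and 0.0% of all genes. At an unadjusted p below 0.05 there were 9 genes, 30 of 43 were higher in lower tissue, and the median was 0.07 with a range from -0.27 to 0.70. The largest difference was that of Ccna2. Set against the single sham lower array of the time, which the fit assumes to vary like the other groups, 14 mitosis and 13 replication genes rose at 1 week, and 3 and 10 rose at 48 h.

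Other cell cycle genes, 125 on a further list of which 88 were tested, were called in either direction about as often as all genes. The shares called were 36.4% at 24 h, 44.3% at 48 h and 65.9% at 1 week in the infarct and 38.6% at 1 week in remote tissue, beside 42.6%, 50.9%, 60.5% and 38.4% of all genes. In the infarct 12 rose and 20 fell at 24 h (median 0.10), 31 and 8 at 48 h (median 0.24), 49 and 9 at 1 week (median 0.52), and 8 and 2 at 8 weeks (median 0.08). In remote tissue 2 rose and 3 fell at 48 h, and 27 and 7 at 1 week. Of all genes, 25.1% were higher and 25.8% lower in the infarct at 48 h. At 1 week these shares were 34.9% and 25.7% in the infarct and 20.7% and 17.7% in remote tissue. In these comparisons rises outnumbered falls by more on the further list than over all genes. The list passed the same filter, which a gene dim in sham can enter only through arrays where it is high. Anln and Cks2, for example, had sham means of 15.0 and 31.1 at 1 week, below the filter level of 108.2. A count over genes that passed on sham arrays alone is not given for this list. The largest rises at 48 h were those of Cdkn1a (2.37 ± 0.22), which encodes the kinase inhibitor p21, Cks2 (2.21 ± 0.31) and Cks1b (1.82 ± 0.27), small partners of Cdk1, Uhrf1 (1.96 ± 0.38), which brings Dnmt1 to new DNA, and Smc2 (1.65 ± 0.24) of condensin. Cdkn1a went from 188 ± 26.1 to 1178 ± 235 (mean ± SD, n = 3). Cdkn1c, which encodes the kinase inhibitor p57, fell most, by 2.10 ± 0.26, from 946 ± 71.9 to 188 ± 42.4. Ccng1, Gmnn, the inhibitor of licensing, Ung and the Rb relative Rbl2 fell by 1.69, 1.44, 1.10 and 0.85. At 1 week Cks2 (3.70), Anln (3.63), which works at the cleavage furrow, Prc1 (2.89), Smc2 (2.60) and Cks1b (2.58) rose most, and Ung, Ccng1, Gmnn, Cdkn1c and Rpa3 fell by 1.68, 1.55, 1.11, 0.96 and 0.51. Anln (2.35), Cks2 (2.27), Prc1 (1.95), Kif22 (1.86) and Uhrf1 (1.77) led in remote tissue at 1 week.

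Marker genes of several cell types moved with these changes, and their part in the results was not tested. Beside the marker counts below, 25.1% of all genes were higher and 25.8% lower in the infarct at 48 h. At 1 week these shares were 34.9% and 25.7% in the infarct and 20.7% and 17.7% in remote tissue. Fewer cells of a type and less RNA per cell cannot be told apart in these tissue pieces. Cardiomyocyte markers fell in 13 of 15 genes in the infarct at 48 h and in 14 of 15 at 1 week, and 1 rose at each time. Their summed intensity was 121628 to 157481 at 48 h in the infarct against 216492 to 263018 in sham, and 26268 to 86242 at 1 week in the infarct, 155570 to 197666 in remote tissue and 223987 to 251803 in sham. The infarct array with the highest number at 1 week was the lowest of these, while its mean over the mitosis genes (2.03) lay between those of the other infarct arrays. All 15 cardiomyocyte markers reached the filter level on at least 1 array of each group at 1 week, sham, remote and infarct.

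Macrophage markers rose in 10 of 13 genes in the infarct at 48 h and in all 13 at 1 week, in the infarct and in remote tissue. Msr1, Lgals3, Itgam and Ccr2 were below the filter level on every sham upper array at 1 week, and Msr1 also at 48 h. All 13 reached that level on at least 1 array of the infarct and of remote tissue at 1 week. The macrophage sum was 12922 to 22933 in the infarct against 6821 to 9063 in sham at 48 h. At 1 week it was 38282 to 46090 in the infarct, 19873 to 30545 in remote tissue and 5440 to 7447 in sham, the same order of regions as for Cdk1 and Ccnb2. Fibroblast markers rose in 6 and fell in 4 of 15 genes at 48 h, with sums of 25279 to 43450 in the infarct and 29358 to 34118 in sham. At 1 week 12 of 15 rose in either region, and the sums of 82121 to 92333 in the infarct and 81248 to 97486 in remote tissue overlapped, above 25883 to 27425 in sham. Neutrophil markers were high already at 24 h, when the infarct array means over the mitosis genes were 0.05, 0.07 and 0.36 above sham, with sums of 10016 to 21022 in the infarct against 1269 to 1678. They were 15282 to 15846 at 48 h and 2352 to 3782 at 1 week, when 846 to 1153 was measured in sham, and Ly6g, Ltf, Ngp and Mpo stayed below the filter level on every infarct array at both times. Endothelial markers rose in 4 and fell in 3 of 10 genes at 48 h and rose in 1 and fell in 6 at 1 week. Lymphocyte markers rose in 1 of 6 tested genes at either time, and Cd3d, Cd3g and Cd8a were below the filter level on those infarct arrays. Smooth muscle and pericyte markers rose in 5 of 8 genes at 1 week in the infarct and in 5 of 8 in remote tissue. Their sums at 1 week were 14834 to 18461 in the infarct, 9002 to 12397 in remote tissue and 5973 to 6824 in sham, in the same order of regions as for Cdk1 and Ccnb2, and 6723 to 13141 in the infarct against 5479 to 6185 in sham at 8 weeks. Of 6 fat cell markers 2 rose at 1 week in the infarct, and Adipoq read 390.2, 281.3 and 1571.2 in the infarct, 268.5, 161.9 and 1177.9 in remote tissue and 76.7, 71.8 and 45.8 in sham. Of 6 red cell precursor markers 2 fell at 1 week in the infarct. At 8 weeks the macrophage sum was 7568 to 15944 in the infarct against 5397 to 5954 in sham, and the fibroblast sum 37548 to 79476 against 24756 to 29792, while the mitosis genes were near sham.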

How the data were processed

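Per the labels, 59 pieces of mouse left ventricle were each hybridised to 1 Affymetrix array. The values are intensities on a linear scale, deposited by the authors as 1 number per probe set; how they were scaled is not given in the sources used here. Genes were taken from the platform annotation. Of 12488 probe sets, 10833 named 1 gene, 396 named several, 1193 named none and 66 were controls; 0 symbols needed updating. For each gene the probe set with the highest mean was kept, genes with an intensity of at least 108.2 on at least 3 arrays were tested (6670), and 45.6 was added before log2.

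One limma model (3.58.1, in R 4.3.3) held all 23 groups, with the title number as a random block (correlation 0.148), and Benjamini-Hochberg adjustment covered all genes tested. The title number pairs infarct and remote pieces only on the reading that it names the mouse, which the labels do not state. The members, role groups and lists were chosen with earlier results of these data known. The text accounts for every member, names a fixed panel and, by rule, the 2 largest changes per role group at 1 week, the 8 largest in remote tissue, every fall, members whose probe sets differ, and the 5 largest rises and falls of the further list. The fit was tested on simulated data. Array number limits precision.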

Additional observations from a re-analysis of the deposited data

Results flagged for a closer look

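Effects that differed between times, by the test of the difference itself, were noted for a closer look. The infarct effect differed from 4 h to 24 h in 1 of the 43 tested cell cycle genes, from 24 h to 48 h in 11, from 48 h to 1 week in 18 and from 1 week to 8 weeks in 30. The remote effect differed from 48 h to 1 week in 13 genes and from 1 week to 8 weeks in 13. Of all genes, 17.1%, 10.4%, 26.3% and 36.8% were called in these infarct steps, and 13.6% and 16.5% in the remote steps. From 4 h to 24 h the share of the 43 genes was 2.3%, below that of all genes. Among the 31 genes that passed the filter on sham arrays alone, the infarct counts were 1, 8, 11 and 18. The remote counts among them were 9 and 7.

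A signal also appeared in probe sets outside the comparisons. Tyms, thymidylate synthase, had no probe set of its own, but 2 probe sets are annotated to both Tyms and its pseudogene Tyms-ps, and their signal cannot be assigned to either. The first had a mean infarct intensity at 1 week of 461.2, with arrays at 356.2, 480.2 and 547.2, above remote arrays at 122.1, 184.6 and 185.5 and sham upper arrays at 50.3, 30.4 and 70.0. The other had a mean of 350.9, with arrays at 246.1, 397.4 and 409.2 against 29.9, 11 and 43.2 in sham. No test was made of these probe sets.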

How the results depend on the processing

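Of 478 counts of genes called under other settings, 83 moved by over 1.5 times. Of 1942 values of single genes, 121 lost the call, 8 gained it and 19 reversed, while 1794 kept direction and call. With no replicate block, 27 genes were called at 48 h, 38 at 1 week and 30 in remote tissue at 1 week, and with the replicate block as a fixed term infarct against remote tissue gave 24 at 48 h, 26 at 1 week and 5 at 24 h. Fitting only the 2 groups compared called, for infarct against sham, 0 at 1 h, 3 at 4 h, 3 at 24 h and 0 at 8 weeks, and for infarct against remote 0 at 1 h, 0 at 24 h, 15 at 48 h and 0 at 8 weeks. Sham lower tissue as control, 1 array per time that is assumed to vary like the other groups, gave 0 at 1 h (0 also with both sham pieces), 4 at 24 h and 17 at 48 h. Quantile normalization gave 7 at 8 weeks, 19 in remote tissue at 1 week and 3 for sham over time. The single calls of infarct against remote at 8 weeks and of the step from 4 h to 24 h became 0 under an offset of 1 times the median, quantile normalization, no filter and no replicate block, the former also with every probe set. An offset of 0.05 times the median gave 1 in remote tissue at 48 h.

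Leaving out 1 array gave 0 to 1 genes at 1 h, 0 to 1 at 4 h, 4 to 9 at 24 h and 1 to 5 at 8 weeks for infarct against sham, 0 to 1 at 1 h, 24 h and 48 h for remote against sham, and 1 to 2 at 1 h, 1 to 5 at 24 h, 17 to 28 at 1 week and 0 to 1 at 8 weeks for infarct against remote. It gave 0 to 1 for the infarct steps from 1 h to 4 h and from 4 h to 24 h, 4 to 18 from 24 h to 48 h, 6 to 16 for the remote step from 48 h to 1 week and 3 to 9 for sham over time. Values that reversed with 1 array left out ran from -0.229 to 0.734 for Ccnb2 and from -0.598 to 0.053 for Stmn1 at 48 h, from -0.135 to 0.390 for Ccnd1 and from -0.118 to 0.014 for Mki67 at 1 week, and from -0.002 to 0.522 for Ccnd1 and from -0.040 to 0.391 for Pcna in remote tissue at 1 week. The step of Mki67 ran from -0.048 to 0.130, and was -0.201 by quantile normalization. Ccnd1 at 1 week was -0.026 and Mki67 at 48 h 0.025 against sham lower tissue. With standard probe sets first Lig1 was 1.192 at 48 h and 1.757 at 1 week, and Mki67 1.143 and 3.465. The standard probe sets and the arrays left out of steps and sham tests were chosen after seeing the data. Except for the probe set choice, the cause was not tested.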
